A study of Caenorhabditis elegans with 58 samples.

Results

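Wild-type embryos of the nematode Caenorhabditis elegans were compared at the 2-8 cell stage, shortly after fertilisation, and at the comma stage, when the embryo begins to lengthen and its tissues form. The comparison used 4 of the 58 small-RNA libraries of the series, 2 at each stage, and all 276 microRNA (miRNA) arm lines of the deposited count table. The 10 spike-in lines and the 10 lines of edited mir-35 sequences were left out. Of the 276 arms, 144 were guides and 132 were passengers, whose names carry an asterisk in the table. Both groups were N2 hermaphrodites with no edited allele and no treatment, and RNA came from whole animals. The labels describe growth in bulk liquid culture and bleaching for every library of the series. The labels do not say how embryos were staged. Libraries of an ebax-1(tm2321) null strain, CZ9907, at the same 2 stages (2 each) were set beside the wild-type values. Wild-type libraries of the later pretzel stage and of starved L1 larvae (2 each) were used to follow levels after comma. Both strains at these 4 stages make up the 16 staged libraries, over which the spread for the single-arm tests was estimated. EBAX-1 is the worm relative of ZSWIM8, a ubiquitin ligase receptor that takes part in the decay of some miRNAs. The labels do not say whether replicates came from separate cultures, so p-values measure only the spread between these libraries, which may be technical.

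A miRNA gene gives a hairpin whose 2 arms are cut out, and one arm, the guide, is loaded into an Argonaute protein and pairs with messenger RNAs mainly through its seed near the 5′ end, while the other, the passenger, is mostly degraded. Guides with the same seed form a family. In C. elegans the mir-35 and mir-51 families are required for embryonic development, and mir-35 family miRNAs are present from the earliest embryo. The heterochronic miRNAs lin-4 and let-7, with the let-7 relatives mir-48, mir-84 and mir-241, time cell fates in the larva. The early embryo relies on RNA supplied by the mother before zygotic transcription takes over, so both the loss of supplied miRNAs and the start of new ones can fall between these stages.

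The 4 libraries differed in depth and in how finely low counts were resolved. miRNA counts were 350698 and 617343 at 2-8 cell (replicates 1 and 2) and 2802639 and 1565933 at comma, within a range of 170758 to 4059401 over the 16 staged libraries. Levels below are CPM, counts scaled to a common total of miRNA counts per library, by plain library totals. In that unit 3 counts, taken as the floor for counting error, were 8.55 and 4.86 CPM at 2-8 cell and 1.07 and 1.92 CPM at comma. In 2-8 cell replicate 2, no arm had 3 to 29 counts, 29 arms had 30 to 80 counts with a median of 52, and 179 arms were at 0. A further 5 arms had counts above 0 of at most 2. The other 3 libraries had 45, 39 and 31 arms with 3 to 29 counts. Most low counts of 2-8 cell replicate 2 therefore lay around 84.2 CPM, called 1 count step below, and a 0 in it says little about arms near that level. Whether higher counts were multiples of this step was not tested. Spike-in counts per miRNA count were 0.966 and 1.51 at 2-8 cell and 0.489 and 0.221 at comma.

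Marker miRNAs of formed tissues were mixed. The neuronal miRNAs mir-124 and lsy-6 were at 0 in both 2-8 cell libraries. At comma mir-124 was at 16.1 and 0 CPM and lsy-6 at 0 and 49.2 CPM. The muscle miRNA mir-1 was already present at 2-8 cell, at 12250 and 2239 CPM. Both markers set for a mother's larval and adult tissue, let-7 and lin-4, were also detected there. Their summed level was 6778 and 1881 CPM at 2-8 cell and 248 and 406 CPM at comma. Carry-over of maternal tissue and supply of these miRNAs to the embryo cannot be told apart in these libraries.

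At the 2-8 cell stage 2 families made up most of the miRNA counts. The mir-35 family guides (mir-35 to mir-42) held 32.7 and 47.6% of counts, and the mir-51 family (mir-51 to mir-56) held 20.2 and 29.4%. A single arm, mir-35, was the most abundant in both libraries, at 202827 and 312094 CPM. Next came mir-51, at 152958 and 269924 CPM, and mir-71, a miRNA known for its roles in lifespan and in survival of starved larvae, at 153765 and 59019 CPM. These 3 arms held 25.7, 21.1 and 10.6% of counts on average. They were followed by the mir-35 family members mir-40 (4.84%), mir-39 (4.35%) and mir-37 (4.21%). The 10 most abundant arms also held mir-65, mir-72, mir-56 and mir-73, at 2.54, 2.47, 2.32 and 2.03%. Between the replicates, mir-71 was 2.61 times higher in replicate 1, while mir-35 and mir-51 were higher in replicate 2.

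**Figure D1:**
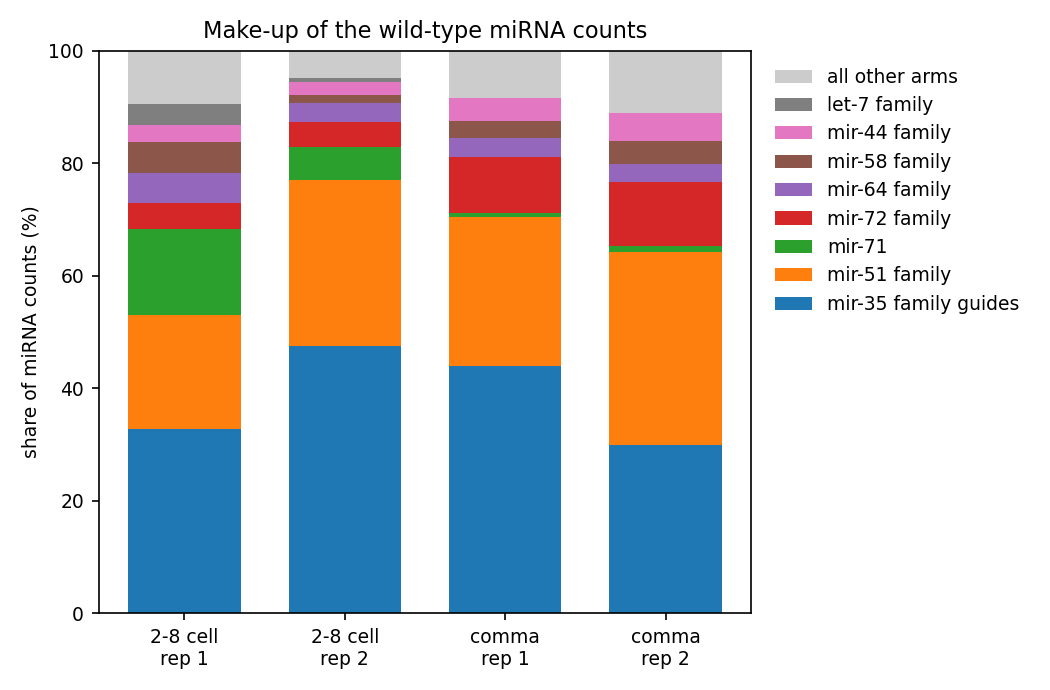
Stacked bars give the share of all miRNA counts (%, from 0 to 100) held by each family and by mir-71 in the 4 wild-type libraries. The mir-35 and mir-51 families hold 52.9 to 77.0% in every library, mir-71 narrows from 2-8 cell to comma, and the mir-72 family widens from 4.68 and 4.33% to 10.1 and 11.4%.

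At comma the same families led, and mir-71 had left the most abundant arms. The mir-35 family guides held 43.9 and 30.0% and the mir-51 family 26.4 and 34.3% of counts. With 303533 and 184540 CPM, mir-35 was again the most abundant arm, and mir-51 was at 139167 and 153047 CPM. For both arms the 2 stages overlapped. Of the 10 most abundant arms of each stage, 7 were shared. The arms that entered were mir-55, mir-90 and mir-1, and those that left were mir-71, mir-65 and mir-72.

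In 3 summary shares of the composition the stages did not differ by more than the spread between replicates. The mean share of mir-35 family guides was 40.1% ± 10.5 (SD, n = 2) at 2-8 cell and 37.0% ± 9.88 (SD, n = 2) at comma, and the mean share of the 10 most abundant arms was 80.8% ± 9.13 and 79.2% ± 3.04. Passenger arms held 2.52 and 1.45% at 2-8 cell and 1.82 and 0.864% at comma. Of these 3 shares, the differences were -3.17, -1.65 and -0.646 percentage points, with p = 0.667, 1 and 0.667 (2-sided exact permutation tests, adjusted p = 1 for each). With 2 libraries a side there are only 6 regroupings, so the smallest p possible is 2 of 6 and no difference can pass 0.05. With the ebax-1 null libraries added, 4 against 4, exact permutation p was 0.886, 0.971 and 0.0857 in the same order (adjusted 0.971, 0.971 and 0.257). The smallest p possible there is 0.0286. Taking arms from the most abundant down, 50% of counts was reached with 3 and 2 arms at 2-8 cell and from 3 and 4 arms at comma.

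Single arms were compared next, by a different test, so their results are not ranked against those of the shares. Arms were tested with edgeR's quasi-likelihood test, and an arm is named as risen or fallen where its Benjamini-Hochberg adjusted p over the 198 arms tested was under 0.05. At comma 33 arms (16.7% of those tested) were higher and 10 arms (5.05%) were lower. Without adjustment, 70 arms had p under 0.05. Of the arms that rose, 25 were guides and 8 passengers, and of those that fell, 7 were guides and 3 passengers. The 198 tested arms were 122 guides and 76 passengers. The 2 stages did not overlap in CPM for any of the 33 rises and for 9 of the 10 falls, while over all tested arms 34.8% were higher and 17.2% lower without overlap.

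This split depended on the scaling of the libraries. TMM factors, used for the fold changes here, were 1.40 and 1.65 at 2-8 cell and 0.755 and 0.871 at comma. Over the 82 tested arms with a count in all 4 libraries, the median log2 fold change was 0.56 with TMM factors. That median moved by -1.64 with RLE factors, by -0.92 with plain totals, by -1.21 with TMM factors computed without the mir-35 family, and by 0.94 with spike-in counts as library size. Rises were 76.7% of calls with TMM, 58.8% with RLE, 60.5% with plain totals, 58.3% with TMM without the family and 93.6% with spike-ins. The direction of all 43 called arms was kept under these 5 scalings, and 20 rises and 2 falls passed the threshold under each of them. A fit of only the 4 compared libraries with edgeR called 0 of 143 arms in either direction (44 with unadjusted p under 0.05). Each call thus rests on a spread estimated over all 16 staged libraries, and DESeq2 on those 16 libraries called 35 rises and 34 falls. Without 2-8 cell replicate 2, 17 arms rose and 14 fell.

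**Figure D2:**
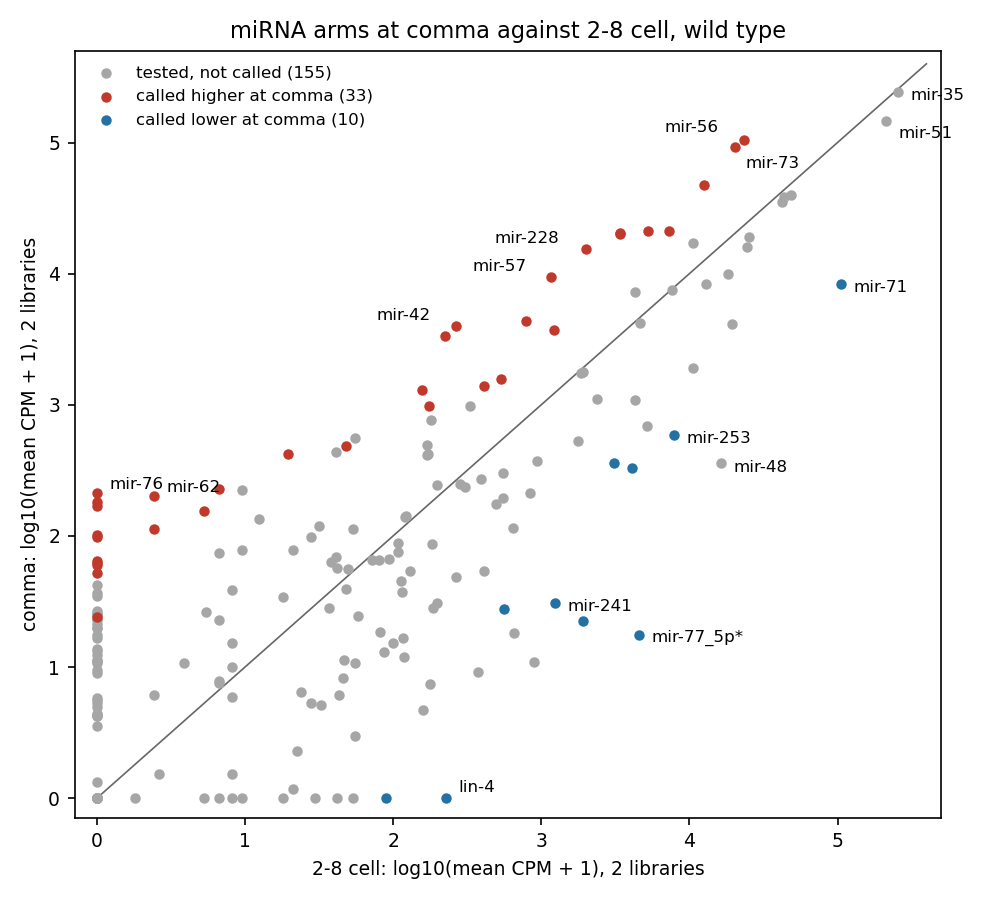
Each point is 1 tested miRNA arm, with log10(mean CPM + 1) over the 2 comma libraries against the same over the 2 2-8 cell libraries, and the line marks equal values. The 33 called rises (red) lie above the line, many of them at 0 in both 2-8 cell libraries, and the 10 called falls (blue) include mir-71 among the most abundant arms.

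Among the abundant arms, the largest gains in counts came from mir-56 and mir-73. The mir-51 family member mir-56 was at 30032 and 16380 CPM at 2-8 cell and at 83929 and 124538 CPM at comma. Its log2 fold change was 3.02 (SE 0.69, adjusted p = 0.00145, edgeR). For mir-73 the levels were 22757 and 17825 CPM against 87357 and 96361 CPM, with a log2 fold change of 3.06 (SE 0.66, adjusted p = 0.000747, edgeR). Together these 2 arms went from under 3% each to 10.4 and 9.19% of counts on average. In both cases the lowest comma library lay well above the highest 2-8 cell library.

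Other abundant guides rose as well. With 17842 and 7118 CPM at 2-8 cell, mir-55 reached 36582 and 58465 CPM at comma (log2 fold change 2.76, adjusted p = 0.00327, edgeR). The level of mir-90 rose from 5595 and 4932 CPM to 15442 and 26538 CPM (2.86, adjusted p = 0.00269, edgeR), a call lost with RLE factors (0.0815) and with DESeq2 (0.0577). The muscle miRNA mir-1 rose from 12250 and 2239 CPM to 20483 and 21456 CPM (2.35, adjusted p = 0.0144, edgeR). Here the 2-8 cell replicates stood 5.47 times apart, and the call was lost without 2-8 cell replicate 2 (0.0909), with RLE factors (0.0514) and with TMM factors without the mir-35 family (0.0805).

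The glial miRNA mir-228 and the posterior patterning miRNA mir-57, whose guides were named after their values were seen because their passengers are among the largest rises, also increased. For mir-228 the levels were 3487 and 518 CPM at 2-8 cell and 9649 and 21299 CPM at comma (log2 fold change 3.73, SE 0.79, adjusted p = 0.000747, edgeR). For mir-57 they were 1098 and 1244 CPM against 7863 and 11043 CPM (3.91, SE 0.80, adjusted p = 0.000747, edgeR). Replicates of mir-57 agreed closely at 2-8 cell, whereas those of mir-228 did not.

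Within the mir-35 family only mir-42 passed the test. Its level rose from 205 and 321 CPM at 2-8 cell to 3730 and 4280 CPM at comma, a log2 fold change of 4.85 (SE 0.93, adjusted p = 0.000747, edgeR). The gene for mir-42 lies apart from the other 7, which stand together in the supplied annotation. For those 7 guides no adjusted p was under 0.05 with edgeR, while DESeq2 called mir-38 lower (log2 fold change -2.68, adjusted p = 0.0155). Their mean CPM at comma was within 0.297 to 0.980 times that at 2-8 cell, the lowest for mir-38 (1238 and 2324 CPM against 589 and 468 CPM). The median log2 fold change of the 8 guides was 0.71 with TMM factors and -0.22 with plain totals, so its sign followed the scaling. The difference between mir-42 and the other members was not tested.

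The mir-51 family rose in 4 of 6 members, beside 16.7% of all tested arms that rose. Its median log2 fold change was 2.67 against 1.03 over all 198 tested arms, and 1.85 against 0.19 with plain totals. Besides mir-55 and mir-56, mir-52 rose from 918 and 659 CPM to 3423 and 5254 CPM (3.32, adjusted p = 0.00295, edgeR). The fourth, mir-54_3p, was called at adjusted p = 0.0402 (edgeR) but not with plain totals (0.138), RLE factors (0.188), TMM factors without the mir-35 family (0.165), DESeq2 (0.089), without 2-8 cell replicate 2 (0.24) or without comma replicate 2 (0.165). The most abundant member, mir-51, gave 0.40 (SE 0.60), and mir-53 gave 1.79 (SE 2.05). The mir-44 family rose in 2 of 3 tested members, mir-44 and mir-45, again beside 16.7% of all tested arms, with a log2 fold change of 3.43 for mir-44 (adjusted p = 0.000747, edgeR). The counts of mir-44 stood at 0.982 to 1.05 times those of mir-45 in every library. Reads can be shared between these 2 miRNAs, so their rises may be 1 measurement rather than 2. The remaining member, mir-61, known from vulval development, was at 20767 and 17870 CPM at 2-8 cell and 4814 and 3419 CPM at comma, an adjusted p of 0.143 with TMM and 0.00494 with plain totals.

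Other families gave few or no calls. The mir-72 family had 1 rise of 3, mir-73, and the mir-2 family had 1 rise of 3, mir-2 itself, where 16.7% of all tested arms rose. Of the mir-58 family, the worm relatives of fly bantam, and of the mir-64 family, 0 of 5 members each were called. Their median log2 fold changes were 0.73 and 0.47 with TMM and -0.12 and -0.41 with plain totals.

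The miRNAs that fell included the third most abundant arm of the 2-8 cell embryo. With 153765 and 59019 CPM at 2-8 cell, mir-71 was at 7080 and 9613 CPM at comma, a log2 fold change of -2.84 (SE 0.67, adjusted p = 0.00219, edgeR). Its passenger went from 1024 and 92.3 CPM to 15.3 and 38.3 CPM (-3.61, adjusted p = 0.0343, edgeR). The stages did not overlap for either arm, and for the passenger the nearest libraries were at 92.3 and 38.3 CPM. The 92.3 CPM, in 2-8 cell replicate 2, was near 1 count step (84.2 CPM) of that library.

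The largest falls among called arms still seen at comma were those of the mir-77 locus. The passenger mir-77_5p* was at 6929 and 2216 CPM at 2-8 cell and 5.35 and 27.5 CPM at comma (log2 fold change -7.35, SE 1.44, adjusted p = 0.000747, edgeR). The guide mir-77_3p went from 2846 and 957 CPM to 18.9 and 23.6 CPM (-5.64, SE 1.78, adjusted p = 0.0195, edgeR). The arm named passenger in the table was the more abundant at 2-8 cell, with 70.9 and 69.8% of the counts of the locus.

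The heterochronic miRNAs lin-4, let-7, mir-48, mir-84 and mir-241 fell or were lower. With 325 and 128 CPM at 2-8 cell, lin-4 had 0 counts in both comma libraries. Taking 3 counts per library as the floor, it was at least 66.8-fold lower than its lower 2-8 cell library, whose level was under 2 count steps (adjusted p = 0.0144, edgeR, and 0.0706 without comma replicate 2). In the let-7 family 2 of 5 tested members fell and none rose, beside 5.05% of all tested arms that fell, and the median log2 fold change was -4.30 against 1.03 over all tested arms. The level of let-7 went from 6453 and 1753 CPM to 248 and 406 CPM (-2.84, SE 0.95, adjusted p = 0.0308, edgeR). That of mir-241 went from 1722 and 765 CPM to 42.5 and 17.2 CPM (-4.47, SE 1.46, adjusted p = 0.0255, edgeR). Its neighbour mir-48 was higher at 2-8 cell, 27499 and 5444 CPM, than at comma, 378 and 336 CPM, but did not pass the test (-4.70, SE 1.80, adjusted p = 0.0933, edgeR, and 2.37e-05 with DESeq2). For mir-84 the values were 978 and 332 CPM against 34.3 and 0 CPM (adjusted p = 0.0893, edgeR). As a share of all counts, the let-7 family was 3.67 and 0.829% at 2-8 cell and 0.0722 and 0.0760% at comma. The lin-4 family, lin-4 and mir-237, was 0.0938 and 0.0128% at 2-8 cell and 0.000678 and 0.0466% at comma. With lin-4 at 0 there, the comma share was that of mir-237, which was tested and not called.

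A further pair of guides fell, mir-253 from 5723 and 10062 CPM to 545 and 631 CPM (-2.82, SE 0.82, adjusted p = 0.0135, edgeR), and mir-70 from 5030 and 1191 CPM to 246 and 473 CPM (-2.31, SE 0.81, adjusted p = 0.0343, edgeR). The remaining called arm, mir-241_3p*, had 177 and 0 CPM at 2-8 cell and 0 at comma, so its groups overlapped.

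Several of these falls rested on one library or on the scaling. The calls of let-7, mir-70 and mir-71_3p* were lost without 2-8 cell replicate 1 (adjusted p = 0.156, 0.371 and 0.532, edgeR) and without comma replicate 1 (0.137, 0.233 and 0.175). Without comma replicate 2, mir-241 (0.132) and mir-71_3p* (0.0586) lost theirs, and mir-253 did without 2-8 cell replicate 2 (0.0511). With spike-in counts as library size, 7 of the named falls were no longer called: let-7 (0.275), mir-241 (0.149), mir-253 (0.229), mir-70 (0.391), mir-71 (0.0864), mir-71_3p* (0.213) and mir-77_3p (0.0907). Only mir-77_5p* and lin-4 among the falls passed under all 5 scalings.

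Most fallen arms were higher in 2-8 cell replicate 1 than in replicate 2, as were the markers of larval and adult tissue. Among the rises, mir-1, mir-228 and mir-55 were also higher in replicate 1, while mir-42 and mir-57 were not. The ratio of replicate 1 to replicate 2 was 3.68 for let-7, 2.54 for lin-4, 2.61 for mir-71, 3.13 for mir-77_5p*, 4.22 for mir-70 and 5.05 for mir-48. It was 0.569 for mir-253 and 1.16 for mir-61. Of the 8 called falls other than let-7 and lin-4, 7 were at least 2 times higher in replicate 1 (mir-241_3p* with 0 counts in replicate 2), and so were 37 of the 82 tested arms with a count in all 4 libraries. The part of maternal tissue in these falls was not tested. In these bulk samples fewer cells of a type and less RNA per cell cannot be told apart.

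Presence was described by a rule with no test: under 20 CPM in both libraries of one stage and at least 50 CPM in both of the other. By this rule 11 arms appeared by comma, of which 6 were passengers and 9 were among the called rises. They lay between 54.3 and 298 CPM at comma and at 17.1 CPM or less at 2-8 cell. The highest at comma among those with 0 counts at 2-8 cell was mir-76, at 128 and 298 CPM (adjusted p = 0.000747, edgeR). Also at 0 in both 2-8 cell libraries were mir-57_3p*, at 205 and 157 CPM at comma, and mir-233, at 187 and 149 CPM (adjusted p = 0.0137 and 0.00327, edgeR). No fold is given for these arms, because the steps of 2-8 cell replicate 2 leave no firm floor. Passengers of mir-1 (142 and 54.3 CPM) and mir-236 (75.6 and 124 CPM) also rose from 0. Without 2-8 cell replicate 2 their adjusted p (edgeR) was 0.0605 and 0.0909. That of mir-236 was also 0.0638 without 2-8 cell replicate 1, 0.061 without comma replicate 2, 0.0988 with RLE factors and 0.0996 with TMM factors without the mir-35 family.

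Arms that appeared with a few counts in 2-8 cell replicate 1 were mir-62, a miRNA cut from an intron, mir-86, and 4 other arms. The level of mir-62 was 2.85 and 0 CPM at 2-8 cell and 135 and 268 CPM at comma (adjusted p = 0.00349, edgeR). That of mir-86 was 8.55 and 0 CPM against 84.9 and 223 CPM (adjusted p = 0.0194, edgeR, and 0.0909 without 2-8 cell replicate 2). Passengers of mir-228 (11.4 and 0 CPM against 291 and 161 CPM) and mir-46 (2.85 and 0 CPM against 107 and 117 CPM) were called with TMM but not with plain totals (0.057 and 0.0615), RLE factors (0.0693 and 0.0564), TMM factors without the mir-35 family (0.0785 and 0.0617) or without 2-8 cell replicate 2 (0.0909 and 0.0986). The passenger of mir-67 was at 17.1 and 0 CPM against 290 and 160 CPM and was not called (0.0807).

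Further rises from 0 lay below the presence rule. At comma mir-1821 reached 79.9 and 47.9 CPM, mir-2 45.7 and 71.5 CPM, mir-232_5p* 35.3 and 87.5 CPM and mir-236_3p 11.4 and 35.1 CPM. Without 2-8 cell replicate 2, adjusted p (edgeR) was 0.0567, 0.0605, 0.105 and 0.144 in that order. The last 2 also missed the threshold without 2-8 cell replicate 1 (0.0721 and 0.0973) and without comma replicate 2 (0.0865 and 0.161). So they did with plain totals (0.0532 and 0.0932), RLE factors (0.0646 and 0.0773) and TMM factors without the mir-35 family (0.0665 and 0.0801). The passenger of mir-90 rose from 37.1 and 0 CPM to 380 and 460 CPM (adjusted p = 0.0144, edgeR, and 0.0714 without 2-8 cell replicate 2).

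All 11 appearing arms were at 0 in 2-8 cell replicate 2, the library with coarse steps, and 5 of 11 were also at 0 in replicate 1. None of the 11 reached 3 steps of that library (253 CPM) in both comma libraries. In the ebax-1 null strain, all 11 were at 50 CPM or more in both comma libraries, but only 3 were under 20 CPM in both 2-8 cell libraries. These 3 were mir-76 (0 and 3.06 CPM in the null 2-8 cell libraries), mir-62 (2.60 and 0 CPM) and mir-86 (10.4 and 15.3 CPM).

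Disappearance by the reverse rule was seen for 6 arms, of which 2 were passengers and 1, lin-4, was called. Their levels were 71.3 to 1386 CPM at 2-8 cell and at most 19.8 CPM at comma. The highest was mir-85, at 1386 and 410 CPM at 2-8 cell and 0 and 19.8 CPM at comma (log2 fold change -5.77, SE 2.17, adjusted p = 0.0531, edgeR), which passed with plain totals (0.00585). The guide mir-246, whose level in adults has been tied to lifespan, was at 562 and 186 CPM against 15.7 and 0.639 CPM (adjusted p = 0.132, edgeR). The intestinal miRNA mir-786 was at 279 and 71.3 CPM against 12.8 and 0 CPM (adjusted p = 0.225, edgeR). Passengers of mir-1829c and mir-1829b were at 137 and 98.8 CPM and at 79.8 and 92.3 CPM at 2-8 cell, and at 7.66 to 14.3 CPM at comma. In 2-8 cell replicate 2, mir-786 and these passengers were near 1 count step (84.2 CPM), so their presence there is not firm. Of the 6 arms, only mir-85 was above 3 steps (253 CPM) in that library. The same 6 arms met the rule in the ebax-1 null libraries.

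**Figure D3:**
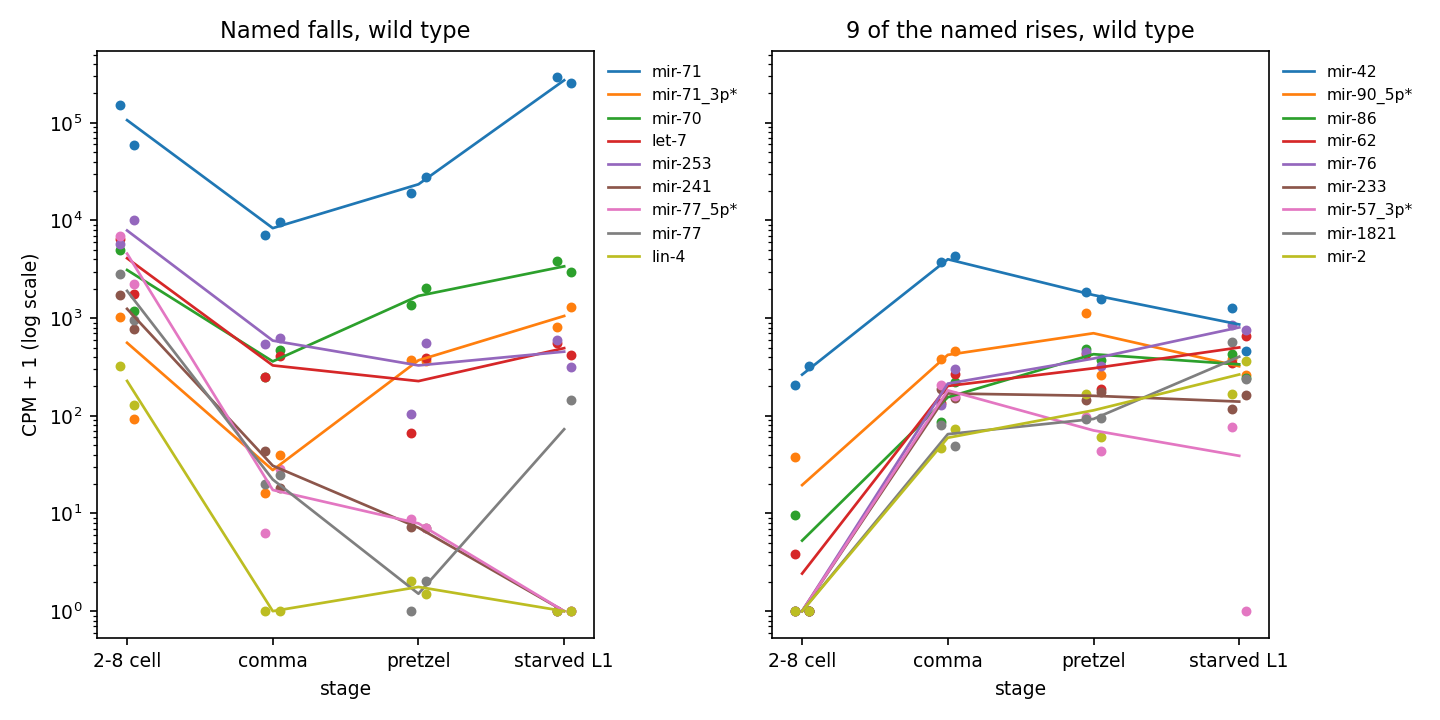
Levels of 9 named falls (left) and 9 named rises (right) in the wild-type libraries of 4 stages, as CPM + 1 on a log axis, with points for the 2 libraries of a stage and lines through their means. After comma mir-71 and mir-70 are high again in starved L1, mir-70 only to within its 2-8 cell range, while lin-4 and mir-241 stay near 0, and the rises are above their 2-8 cell levels in both pretzel libraries.

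The fallen miRNAs went on differently after comma. The level of mir-71 was 19250 and 27679 CPM at the pretzel stage and 291347 and 253735 CPM in starved L1, above both earlier stages. For mir-70 the levels were 1354 and 2023 CPM and then 3801 and 2978 CPM, the latter within its range at 2-8 cell. In contrast lin-4 stayed at 1.03 CPM or less in all 4 later libraries, and mir-241 at 6.19 CPM or less. For mir-77_5p* the highest later value was 7.74 CPM, and mir-77_3p was at 0 in 2 of the 4 and at 144 CPM in starved L1 replicate 2. Of the 6 arms that disappeared, all were under 20 CPM in both pretzel libraries and 5 in both starved L1 libraries. The exception was mir-85, at 539 CPM in starved L1 replicate 2. Of the 11 that appeared, 9 were at 50 CPM or more in both pretzel libraries and 8 in both starved L1 libraries.

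Neighbouring miRNA genes, grouped where they lie within 10 kb on 1 strand of the supplied annotation, gave 19 groups. In the group of mir-54, mir-55 and mir-56, all 3 guides rose. The mir-35 to mir-41 group held 7 guides with no call. In the group of mir-42, mir-43 and mir-44, the outer guides rose and mir-43 was at 0 in all 4 libraries. For the pair of mir-71 and mir-2 the calls were opposite: mir-71 fell while mir-2 rose from 0. Neighbours mir-73 and mir-74 were also unequal, with mir-74 at 0 and 214 CPM at 2-8 cell and 62.4 and 87.5 CPM at comma (log2 fold change 0.49, SE 2.12), although the difference between these neighbours was not tested. The pair of mir-48 and mir-241 was lower in both members, with a call for mir-241 only.

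The use of the 2 arms of a locus was compared as the passenger's share of the counts of both arms, which needs no scaling. It was computed for 56 loci with at least 20 counts in each of the 4 libraries. The median share over loci was 0.623 and 0% in the 2-8 cell libraries and 0.977 and 0.392% in the comma libraries, which overlap. In 37 loci it was under 5% in every library. At comma the share was higher without overlap in 12 loci (21.4%) and lower in 6 (10.7%), with no test. Of the 12 higher loci, 10 had a share of 0 in 2-8 cell replicate 2, the library with coarse steps, and 5 in replicate 1. At mir-54 the arm named passenger went from 25.0 and 51.7% to 82.8 and 54.1%. At mir-58a it went the other way, from 53.5 and 59.2% to 39.8 and 36.5%, and at mir-42 from 46.7 and 35.9% to 24.8 and 6.45%. At mir-77 it was 70.9 and 69.8% at 2-8 cell and 22.1 and 53.8% at comma. In 3 loci, mir-41, mir-229 and mir-250, the arm named passenger held over 50% in every library. These loci were picked after their values were seen. In the ebax-1 null libraries, mir-51, mir-52 and mir-90 of the 12 higher loci were again higher at comma without overlap. There mir-1, mir-228 and mir-80 were lower without overlap, and the rest of the 12, mir-54 among them, overlapped. The 6 loci lower in wild type were again lower without overlap except mir-77, which overlapped.

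**Figure D4:**
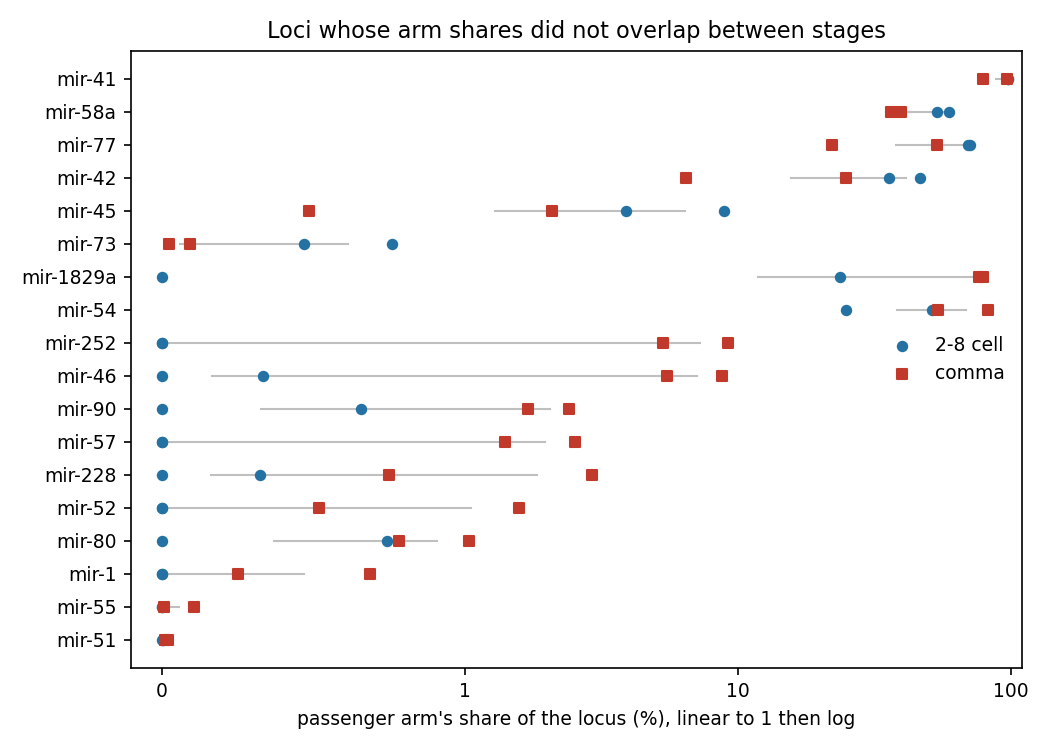
The passenger arm's share of its locus (%, linear to 1 and then logarithmic) in the 2-8 cell libraries (blue circles) and comma libraries (red squares) for the 18 of 56 loci whose groups did not overlap. Grey lines join the means; 12 loci are higher and 6 lower at comma, and for several of the 12 the 2-8 cell share is 0 in both libraries.

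The same contrast in the ebax-1 null strain used 4 other libraries and shared no sample with the wild-type contrast, though both drew on the same estimate of spread. There 8 arms rose (4.04% of 198) and 12 fell (6.06%). All 33 wild-type rises had the same sign in the null strain and 6 were called there. All 10 wild-type falls had the same sign and 7 were called. Among the 144 other tested arms with a fold change, 106 had the same sign. Both mir-77 arms fell in the null strain, mir-77_5p* from 6613 and 10613 CPM to 5.77 and 1.48 CPM. So did mir-71, from 124378 and 73881 CPM to 15776 and 7183 CPM (log2 fold change -2.87, adjusted p = 0.00358, edgeR). The mir-42 value in the null strain was 1.85 (adjusted p = 0.154, edgeR), from 1697 and 432 CPM to 3516 and 3732 CPM. The difference between the strains, tested as an interaction in the same edgeR fit, was called for 0 of 198 arms (19 with unadjusted p under 0.05, lowest adjusted p = 0.357). In the null strain the let-7 plus lin-4 markers were also higher at 2-8 cell (6672 and 5308 CPM) than at comma (698 and 1728 CPM). Averaged over both strains, 49 arms rose and 22 fell.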

How the data were processed

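Small RNAs were sequenced from total RNA of whole animals. The authors deposited unscaled estimated counts, one line for each arm. Of these, 14 values of the staged libraries end in 0.5, and all were rounded to whole counts. The submitters' processing notes name HTSeq 0.13.5, Bowtie2 2.4.4, cutadapt 3.4, SAMtools 1.13 and DESeq2, without their order. No genome build is named in the labels or the table. The annotation supplied matched 137 of 138 miRNA genes and was used only for which genes are neighbours. No table of miRNA sequences was used here. Reads carried no molecular identifiers that the labels name, and floors therefore cover only counting error.

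The robust quasi-likelihood fit of edgeR 4.0.16 (R 4.3.3) was made on all 16 staged libraries, with TMM factors, filterByExpr (minimum count 10, total 15), no covariate and Benjamini-Hochberg adjustment over 198 arms (threshold 0.05, biological coefficient of variation 1.04). Alternatives were 4 other scalings, DESeq2 1.42.0, other filters, a replicate block, other sets of libraries, and each library left out. The fit was also run on simulated counts, drawn with a much smaller spread than these data have. That run therefore gives no error rate at the spread of these data. Replicates differed by more than counting error (chi-square per degree of freedom 660 at 2-8 cell and 779 at comma). Figures used matplotlib 3.10.9.

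Named arms were the mir-35 family guides, the 10 most abundant arms of each stage, up to 15 called rises and falls with the largest fold change, mean log2 CPM of at least 5 and no overlap, up to 10 arms each of the presence rules, and list members as examples. Families were taken by gene name. The members and lists were chosen with earlier results of these data known. The design text of the series describes another experiment that the labels do not match and was not used.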

Additional observations from a re-analysis of the deposited data

Results flagged for a closer look

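One named arm was lower in both comma libraries than in both 2-8 cell libraries of wild type, and higher in the ebax-1 null strain. The mir-35 family guide mir-41 was at 94.1 and 130 CPM at 2-8 cell and 35.3 and 53.6 CPM at comma in wild type, and at 24.3 and 73.5 CPM against 76.2 and 137 CPM in the ebax-1 null strain. The log2 difference between the strains' fold changes was 2.14 (unadjusted p = 0.454 for the interaction, edgeR), so it did not pass a test. In wild-type 2-8 cell replicate 2, 1 count step was 84.2 CPM.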

How the results depend on the processing

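Against 33 rises and 10 falls, RLE factors gave 20 rises, TMM factors without the mir-35 family 21, and all 5 scalings together 20 rises and 2 falls. Spike-in scaling gave 3 falls, DESeq2 34, both strains averaged 22, and the fit of the 4 compared libraries 0 rises and 0 falls (44 of 143 arms with unadjusted p under 0.05, edgeR). Leaving out each library in turn gave 17 to 40 rises and 8 to 14 falls, the 17 without 2-8 cell replicate 2. In the labels, sample ids of all staged replicates 1 share one prefix and those of all replicates 2 another, and what the prefixes mean is not said. Deviations of same-numbered libraries had a correlation of -0.0960 over 2 pairs, too few to tell whether replicates of one number share a difference. With a replicate block there were 31 rises and 8 falls; let-7 (adjusted p = 0.0507, edgeR), mir-70 (0.0543) and mir-54_3p (0.0643) lost their calls and mir-48 (0.0300) gained one.

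Appearing arms numbered 11. They were 7 with at least 100 CPM required, 1 with limits of 50 and 200 CPM, 0 with 3 count steps required (added after seeing the data), and 14 to 22 with a library left out. Disappearing arms numbered 6. They were 3 with at least 100 CPM, 3 with CPM by TMM library sizes, and 8 to 14 with a library left out. Without the most abundant arm of each library, the mir-35 family share was 19.7% at 2-8 cell and 16.8% at comma, and the share of the 10 most abundant arms at comma was 75.2%, since that arm is mir-35 itself. With a library left out, the mir-35 family share ranged from 32.7 to 47.6% at 2-8 cell and from 30.0 to 43.9% at comma.

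Of 803 fold changes of 58 named arms under alternatives, 656 kept their side of the threshold. A further 100 lost the call, 46 gained one and 1 reversed to a call of opposite sign. The reversal was mir-65, at -0.99 with DESeq2 (adjusted p = 0.0377) against 0.47. Arms with no call under either setting count as kept even where their sign changed. For mir-35 the log2 fold change was 0.88 in the main fit and -0.93 with RLE factors. All 35 named calls were lost in the fit of the 4 libraries. The cause of these changes was not tested. Depth limits arms below 8.55 CPM in 2-8 cell replicate 1. In replicate 2, which had more counts, the count step of about 84.2 CPM limits them, for a cause that was not tested.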
